A study of Homo sapiens with 12 samples.

Results

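The machinery that degrades messenger RNA was followed in HEK293T cells, a human embryonic kidney line carrying a viral large T antigen, after siRNA against the exonuclease gene ERI2. The 42 genes described here were chosen by name, as subunits of the exosome and Ski complexes, of the CCR4-NOT and PAN2-PAN3 deadenylases, of the decapping machinery and of nonsense-mediated decay (NMD), out of 55765 gene names in the count table. All 42 were found and all 42 passed the filter on low counts, among 18843 genes tested. Of these 42 mRNAs, EXOSC1 rose to 121% and CNOT6L fell to 81.2% of the control level, and the other 40 did not pass the test. This is 1 higher and 1 lower gene of 42, against 4.29% higher and 4.25% lower among all tested genes. Neither of the 2 calls held under every alternative computed.

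Cells were transfected with ERI2 siRNA (the ERI2 RNAi libraries) or with control siRNA (the control libraries) at 50 nM, transfected again after 48 hours and collected 72 hours later, with 3 RNA-seq libraries per group. Both groups share the cell line and the transfection. The labels give no other ERI2 siRNA group and no rescue, and they do not say whether replicates were separate cultures, so any p-value reflects variation among these libraries alone and that variation could be technical. Levels are in CPM, the read count scaled to the TMM-adjusted size of its library, and are given in the order of replicates 1, 2 and 3. Same-numbered libraries were not taken as pairs, so a difference between them is one between single libraries. The levels are shares of the sequenced RNA. In such bulk RNA, a smaller share of cells with a transcript and less of it per cell cannot be told apart.

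Decay of an mRNA in the cytoplasm usually begins with removal of its poly(A) tail by the PAN2-PAN3 and CCR4-NOT complexes. The body of the message is then degraded either from the cap end, once the DCP2 enzyme has removed the cap, or from the tail end by the exosome, a barrel of catalytically inactive subunits that feeds RNA to attached nucleases. NMD is a surveillance branch in which the helicase UPF1, with UPF2, UPF3 and SMG proteins, marks messages with premature stop codons for these same enzymes, and several NMD factor mRNAs are themselves targets of NMD.

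The libraries held from 29143596 to 38306631 counts, and the 42 genes took from 0.448% to 0.495% of them. Single genes had from 317 counts (UPF3A) to 22496 counts (CNOT1) in a library. ERI2 itself measured 54.4, 58.2 and 54.4 CPM in control libraries and 34.6, 35.8 and 32.5 CPM in ERI2 siRNA libraries, without overlap. The protocol text speaks of siRNA to ERI-1, whereas titles and groups name ERI2, and ERI1 measured 28.4 ± 1.49 against 24.1 ± 2.08 CPM (SD, n = 3), a difference of -0.23 log2 units (edgeR adjusted p = 0.112). Both replicate 1 libraries stood apart from the others of their group: on the first principal component of all tested genes, which held 45.2% of the variance, control libraries scored -6.29, -31.8 and -32.4 and ERI2 siRNA libraries 8.45, 25.7 and 36.4. Of 7 neuronal and embryonic kidney markers that HEK293 lines express, all were tested, with a summed level of 134 to 153 CPM in control and 110 to 129 CPM in ERI2 siRNA libraries. Markers of other cells summed to 13.8 to 19.0 CPM (6 fibroblast genes, COL1A2 at 0), 5.18 to 8.71 CPM (5 keratinocyte and cervical line genes, KRT5 and TP63 at 0) and 1.39 to 2.51 CPM (4 blood genes). In the keratinocyte and cervical line list, CDH1 and EPCAM made up nearly all of the sum. The sums of the HEK293 list and of the keratinocyte and cervical line list were lower in all 3 ERI2 siRNA libraries than in every control library. In edgeR's test at an adjusted p under 0.05, NEFL and INA of the HEK293 list, COL3A1, CDH1 and EPCAM were lower. None of the markers was higher. Among all tested genes 4.25% were lower. The part of the markers in the results was not tested.

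Across the 42 genes, 1 was higher and 1 lower in edgeR's quasi-likelihood test at a Benjamini-Hochberg adjusted p under 0.05, against 4.29% higher and 4.25% lower among all tested genes. A single member is 2.38% of the 42, so neither share exceeded that of all genes. Before adjustment, 11 of the 42 were higher and 4 lower with a raw p below 0.05, against 13.4% and 13.1% of all tested genes. The differences were also small. The median absolute log2 fold change was 0.09 for the 42 genes, 0.17 for all tested genes and 0.12 for the 10315 genes with a mean of at least 10 CPM, a level that all 42 reached. The median log2 fold change of the 42 was 0.04, against 0.003 for all genes and -0.03 for those 10315 genes. Of the 42, 26 were above 0, against 50.5% of all tested genes. Among the 10315 genes 4.28% were higher and 6.45% lower. The standard error of a member's log2 fold change ranged from 0.0654 to 0.124.

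**Figure D1:**
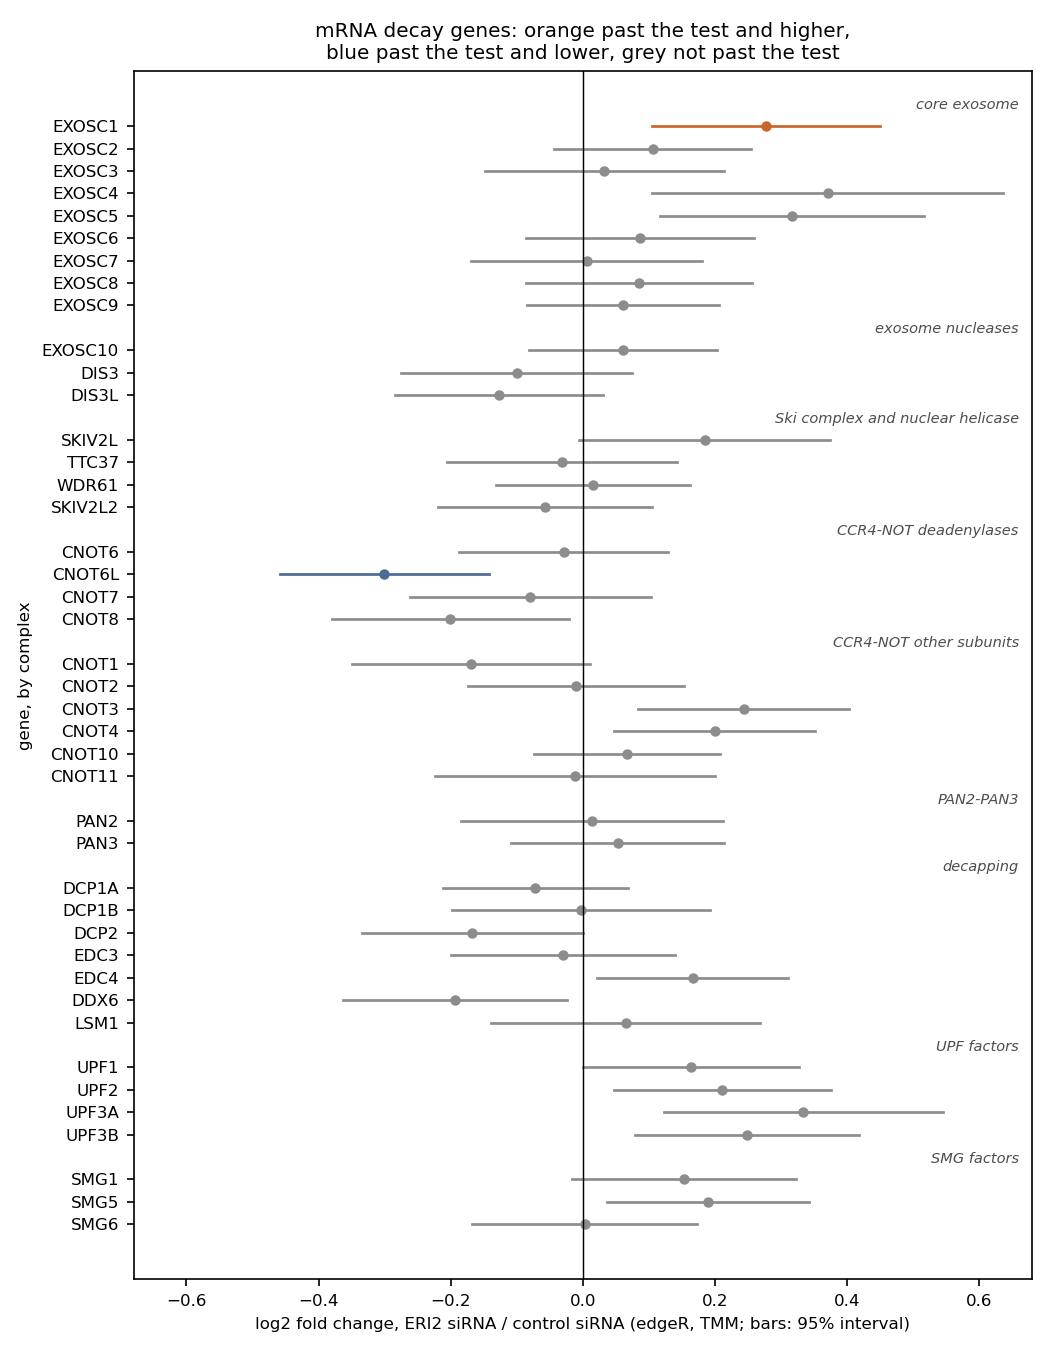
Log2 fold change (ERI2 siRNA over control siRNA) of each of the 42 genes, grouped by complex, with its 95% interval from edgeR's fit of 3 libraries per group. EXOSC1 at 0.28 and CNOT6L at -0.30 are the 2 genes past the test, the 9 core exosome genes and the 4 UPF genes all lie at or above 0, and the 4 deadenylase genes all lie below 0 under TMM (CNOT6 at 0.03 under total library size).

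The exosome core is built of EXOSC4 to EXOSC9, which form its ring, and EXOSC1 to EXOSC3, which cap the ring and bind RNA. EXOSC1 mRNA measured 35.2, 36.7 and 31.5 CPM in control libraries and 42.7, 40.8 and 42.1 CPM in ERI2 siRNA libraries. The 3 ERI2 siRNA libraries all lay above the 3 control libraries. EXOSC1 thus rose from 34.5 ± 2.67 to 41.8 ± 0.983 CPM (SD, n = 3), a log2 fold change of 0.28 (SE 0.0808; edgeR's quasi-likelihood test, adjusted p = 0.0481). The call lies close to the threshold: it ended without any 1 of the 6 libraries, with adjusted p from 0.0549 without control replicate 1 to 0.221 without control replicate 3, while the log2 fold change stayed between 0.20 and 0.32.

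EXOSC5, a ring subunit, measured 14.7, 16.8 and 15.9 CPM in control libraries and 19.5, 18.8 and 20.9 CPM in ERI2 siRNA libraries. Its groups did not overlap either, and its log2 fold change of 0.32 (SE 0.0933) had an adjusted p of 0.0505 in edgeR's test, just short of the threshold. EXOSC4, another ring subunit, had the highest log2 fold change of all 42 genes, 0.37 (SE 0.124; adjusted p = 0.0770 in edgeR's test), and did not pass. Its levels were 13.1, 16.2 and 18.4 CPM in control libraries and 22.6, 18.0 and 20.9 CPM in ERI2 siRNA libraries. The groups overlapped, and the libraries numbered 1 differed by 0.79 log2 units while those numbered 2 and 3 differed by 0.15 and 0.18.

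The other core genes EXOSC2, EXOSC3, EXOSC6, EXOSC7, EXOSC8 and EXOSC9 had log2 fold changes from 0.01 to 0.11, with overlapping groups. The core list as a whole held 9 log2 fold changes above 0 of 9, with a median of 0.09. None of the 9 changed sign under the other library scalings, but EXOSC3, EXOSC7 and EXOSC8 did when single libraries or both replicate 1 libraries were left out, EXOSC7 also under DESeq2 and without a filter. EXOSC8 was high in a single library, ERI2 siRNA replicate 1, with 73.4 CPM against 60.6 to 63.1 CPM in the other 5.

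Catalysis comes from the attached nucleases EXOSC10, which is mainly nuclear, DIS3 and its cytoplasmic relative DIS3L. No nuclease gene passed edgeR's test (0 with raw p below 0.05, DESeq2 0 and limma-voom 0). DIS3L measured 59.0, 64.7 and 60.7 CPM in control and 59.0, 56.4 and 53.6 CPM in ERI2 siRNA libraries, a log2 fold change of -0.13 (SE 0.0735; adjusted p = 0.292). These groups only just failed to overlap, since the 2 libraries numbered 1 both held 59.0 CPM. EXOSC10 and DIS3 had log2 fold changes of 0.06 and -0.10. EXOSC10 was among the steadiest genes, with 174, 174 and 176 CPM in control libraries.

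The Ski complex, made of the helicase SKIV2L and the scaffold proteins TTC37 and WDR61, threads cytoplasmic mRNA into the exosome, and SKIV2L2 is the helicase that serves the nuclear exosome. None of the 4 genes passed edgeR's test (0 with raw p below 0.05, DESeq2 0 and limma-voom 0). SKIV2L measured 83.8, 73.9 and 76.7 CPM in control and 77.1, 91.8 and 97.4 CPM in ERI2 siRNA libraries (log2 fold change 0.18, SE 0.0884, adjusted p = 0.201). It was lower in ERI2 siRNA replicate 1 than in control replicate 1 and higher in replicates 2 and 3, where the differences were 0.31 and 0.34 log2 units. TTC37, WDR61 and SKIV2L2 had log2 fold changes of -0.03, 0.02 and -0.06, and the signs of TTC37 and SKIV2L2 turned under total library size.

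**Figure D2:**
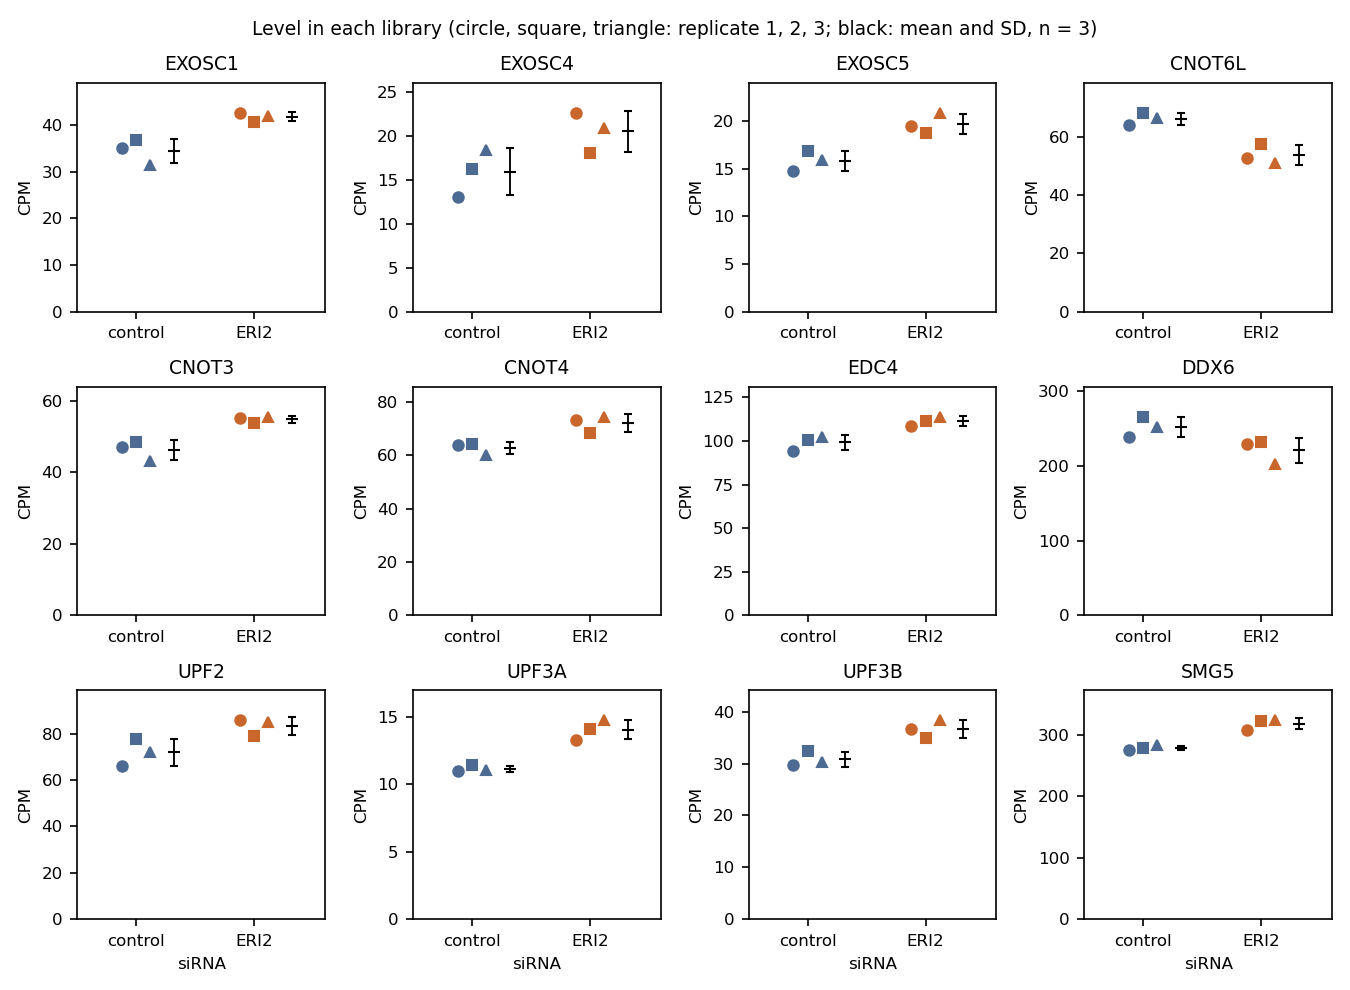
CPM of 12 of the 42 genes in each of the 6 libraries (circles, squares and triangles are replicates 1, 2 and 3; black marks give mean and SD, n = 3). CNOT6L and DDX6 in ERI2 siRNA libraries lie below their 3 control libraries. EXOSC1, EXOSC5, CNOT3, CNOT4, EDC4, UPF2, UPF3A, UPF3B and SMG5 lie above theirs, and EXOSC4 overlaps.

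The CCR4-NOT complex carries a deadenylase of each of 2 families, CNOT6 or CNOT6L and CNOT7 or CNOT8. CNOT6L mRNA measured 64.0, 68.2 and 66.2 CPM in control libraries and 52.8, 57.3 and 50.8 CPM in ERI2 siRNA libraries. Every ERI2 siRNA library lay below every control library. CNOT6L fell from 66.1 ± 2.10 to 53.7 ± 3.33 CPM (SD, n = 3), a log2 fold change of -0.30 (SE 0.0738; edgeR's quasi-likelihood test, adjusted p = 0.0249). The call ended under total library size (-0.24, adjusted p = 0.0567) and without control replicate 2 (adjusted p = 0.0812), control replicate 3 (0.0857), ERI2 siRNA replicate 2 (0.0551) or ERI2 siRNA replicate 3 (0.127). The log2 fold change stayed between -0.35 and -0.24 under every scaling and without any 1 library.

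The closest relative of CNOT6L, CNOT6, measured 83.6, 87.3 and 81.3 CPM in control and 76.8, 88.9 and 81.5 CPM in ERI2 siRNA libraries. Its groups overlapped and its log2 fold change was -0.03 (SE 0.0738; adjusted p = 0.839 in edgeR's test), which turned to 0.03 under total library size. CNOT8 and CNOT7, the enzymes of the other family, had log2 fold changes of -0.20 and -0.08 and did not pass. CNOT8 measured 46.9, 54.8 and 50.7 CPM against 45.3, 46.4 and 40.8 CPM, without overlap. CNOT7 was above control in replicate 1 by 0.18 log2 units and below it by 0.24 and 0.17 in replicates 2 and 3.

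Ratios of related genes within a library do not depend on how libraries are scaled, and 6 pairs were compared this way. The log2 ratio of CNOT6L to CNOT6 counts was -0.39, -0.36 and -0.30 in control libraries and -0.54, -0.63 and -0.68 in ERI2 siRNA libraries. All 3 ERI2 siRNA ratios lay below the control ratios, by 0.27 on average (a difference of -0.27 ± 0.0489 SE, n = 3). The two-sided exact permutation test gave p = 0.1, the smallest p that 3 against 3 libraries allow, and an adjusted p of 0.4 over the 6 pairs. In the other 5 pairs the groups overlapped. Their differences were -0.12 ± 0.0574 for CNOT8 to CNOT7, -0.03 ± 0.0283 for DIS3L to DIS3, 0.06 ± 0.0862 for DCP1B to DCP1A, 0.08 ± 0.0482 for UPF3A to UPF3B and 0.23 ± 0.180 for SKIV2L to SKIV2L2 (SE, n = 3), with exact permutation p from 0.2 to 0.8. DIS3L and DIS3 thus kept their ratio most closely, and SKIV2L to SKIV2L2 varied most between libraries of a group.

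**Figure D3:**
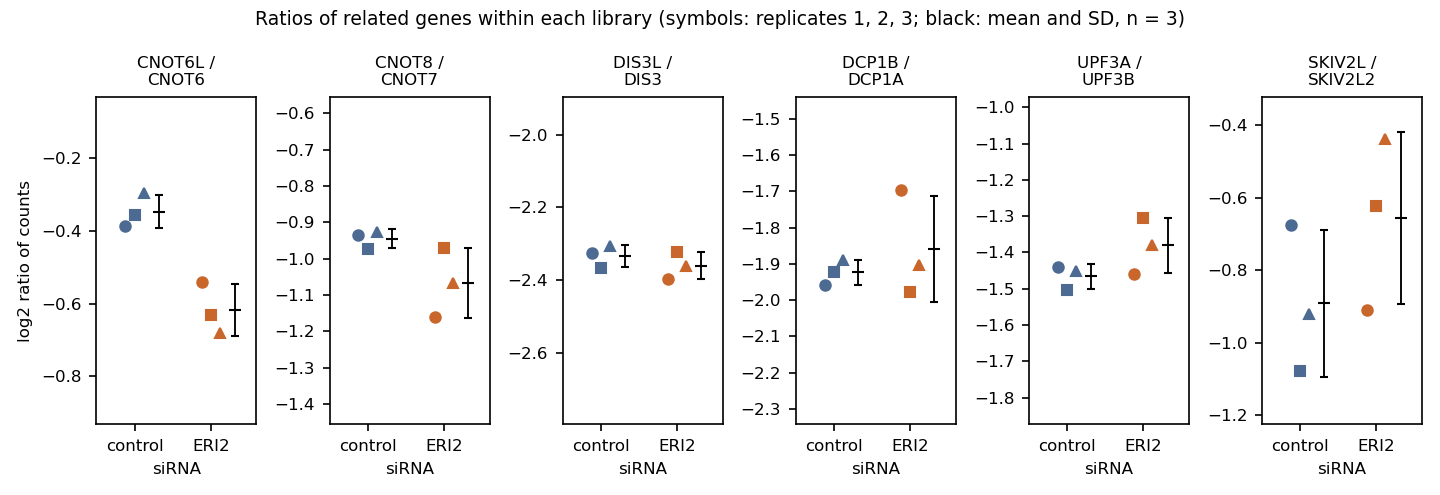
Log2 ratio of read counts of 6 pairs of related genes in each library, each panel spanning the same height (symbols are replicates 1, 2 and 3; black marks give mean and SD, n = 3). For CNOT6L to CNOT6 the ERI2 siRNA libraries lie at -0.54 to -0.68, below the control libraries at -0.39 to -0.30, and in the other pairs the groups overlap.

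Promoter windows from RefSeq (build GRCh38.p14) were matched to 37 of the 42 genes, 4 of the 42 through a newer symbol. They are shown for CNOT6L, the member that fell, beside its relative CNOT6, and for EXOSC5 and UPF3B, which were among those near the threshold on the other side. UPF3A and CNOT3, not shown, lay nearer to it than UPF3B (adjusted p of 0.0509 and 0.0566 against 0.0655 in edgeR's test). EXOSC1, the member that rose, had no window. Each window shown is the 250 bases before the gene start farthest upstream, 5′ to 3′, with capitals marking a match on either strand to one of the motifs named below. They lie at chr4:77820270-77820519 (minus strand), chr5:180494129-180494378 (plus strand), chr19:41397360-41397609 (minus strand) and chrX:119852964-119853213 (minus strand).
CNOT6L: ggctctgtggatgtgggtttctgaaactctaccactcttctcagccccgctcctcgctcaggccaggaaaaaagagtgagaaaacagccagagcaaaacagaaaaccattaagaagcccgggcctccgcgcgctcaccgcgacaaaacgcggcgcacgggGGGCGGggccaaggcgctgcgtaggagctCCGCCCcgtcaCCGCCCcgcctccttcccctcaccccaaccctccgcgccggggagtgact
CNOT6: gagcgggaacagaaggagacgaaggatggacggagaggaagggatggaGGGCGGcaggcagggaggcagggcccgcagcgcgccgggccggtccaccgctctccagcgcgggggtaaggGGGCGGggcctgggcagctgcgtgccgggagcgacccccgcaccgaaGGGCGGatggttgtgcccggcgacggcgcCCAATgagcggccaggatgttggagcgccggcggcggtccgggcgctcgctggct
EXOSC5: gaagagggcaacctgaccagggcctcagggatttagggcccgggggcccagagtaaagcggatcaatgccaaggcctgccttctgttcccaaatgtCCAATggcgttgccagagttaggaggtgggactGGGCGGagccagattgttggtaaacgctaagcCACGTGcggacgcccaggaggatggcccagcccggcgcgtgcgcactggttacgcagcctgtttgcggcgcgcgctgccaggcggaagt
UPF3B: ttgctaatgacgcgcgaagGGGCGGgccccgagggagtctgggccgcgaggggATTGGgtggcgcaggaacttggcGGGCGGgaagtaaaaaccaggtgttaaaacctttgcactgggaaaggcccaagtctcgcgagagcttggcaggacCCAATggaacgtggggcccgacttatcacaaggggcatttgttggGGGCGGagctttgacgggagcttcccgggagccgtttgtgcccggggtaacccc

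The capitals in CNOT6L and CNOT6 are mainly the SP1 motif GGGCGG, which each window holds 3 times. CNOT6 has a CCAAT box as well. EXOSC5 and UPF3B hold both motifs too, and EXOSC5 also has an E-box. Over all matched members, 31 of 37 genes (83.8%) held the SP1 letters on either strand in at least 1 window, against 74.2% of the 10604 tested genes with a window and 46.2% of all 27305 genes in that table. The CCAAT box was found in 16 of 37 (43.2%; 41.7% and 37.0% of those backgrounds). The ETS motif, searched as CCGGAAG, was in 6 members (16.2%; 17.8% and 10.2%). The E-box, searched as CACGTG, was in 5 members (13.5%; 11.1% and 7.73%). The TATA box, searched as TATAAA, was in 1 member (2.70%; 8.14% and 13.0%). The NRF1 motif GCGCATGCG was in 2 members (5.41%; 3.60% and 2.02%). The YY1 motif AAGATGGC was in 1 member (2.70%; 2.22% and 1.64%). The CRE motif TGACGTCA was in none of the members (3.32% and 2.03%). The members' windows had a median GC content of 64.0% and a median of 21 CpG sites, against 64.8% and 21 in tested genes. The CNOT6L and CNOT6 windows shown have 64.4% and 75.2% GC. Genes with several annotated starts have more letters searched, and a match is a description only.

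The remaining CCR4-NOT genes encode the scaffold CNOT1, the structural subunits CNOT2, CNOT3, CNOT10 and CNOT11, and the ubiquitin ligase CNOT4. None passed edgeR's test (2 had a raw p below 0.05, both higher, with 0 calls in DESeq2 and 0 in limma-voom). Those 2 were CNOT3 and CNOT4. CNOT3 measured 47.2, 48.5 and 43.2 CPM in control and 55.1, 53.8 and 55.6 CPM in ERI2 siRNA libraries (log2 fold change 0.24, SE 0.0744, adjusted p = 0.0566). CNOT4 measured 64.0, 64.1 and 60.0 against 73.3, 68.4 and 74.5 CPM (0.20, SE 0.0707, adjusted p = 0.0916). The groups of neither gene overlapped. CNOT1, the most abundant by counts of the 42, went the other way, with 556, 608 and 584 against 533, 534 and 488 CPM, also without overlap (log2 fold change -0.17, SE 0.0842, adjusted p = 0.218). The subunits of the complex therefore did not share a direction: 3 of these 6 and none of the 4 deadenylases had a log2 fold change above 0, which became 5 of 6 and 1 of 4 under total library size.

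PAN2, the nuclease of the other deadenylase, and PAN3, its adaptor, had log2 fold changes of 0.01 and 0.05 (0 of 2 past edgeR's test, 0 with raw p below 0.05, DESeq2 0 and limma-voom 0). PAN3 measured 62.5, 63.5 and 59.9 against 67.0, 66.9 and 59.0 CPM, with overlap. PAN2 was at 125, 103 and 107 CPM in control and 99.2, 116 and 123 CPM in ERI2 siRNA libraries. In each group its replicate 1 library stood apart from the other libraries, high in control and low after ERI2 siRNA.

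Decapping is carried out by DCP2 with its activators DCP1A, DCP1B, EDC3 and EDC4, together with the helicase DDX6 and the tail-binding LSM1. None of the 7 genes passed edgeR's test (1 higher and 2 lower with raw p below 0.05, DESeq2 0 and limma-voom 0). DDX6 measured 240, 266 and 252 CPM in control and 229, 232 and 202 CPM in ERI2 siRNA libraries (log2 fold change -0.19, SE 0.0789, adjusted p = 0.135). DCP2 measured 256, 267 and 250 against 245, 234 and 209 CPM (-0.17, SE 0.0779, adjusted p = 0.188). Both had every ERI2 siRNA library below every control library, as had DCP1A at a smaller difference (-0.07). EDC4, the scaffold of the decapping complex, went the other way, above control in every library. It measured 94.5, 101 and 102 CPM in control and 108, 112 and 114 CPM after ERI2 siRNA (0.17, SE 0.0673, adjusted p = 0.131). DCP1B, EDC3 and LSM1 had log2 fold changes of -0.003, -0.03 and 0.06, with overlapping groups. In all, 2 of the 7 genes had a log2 fold change above 0, which became 4 of 7 under total library size.

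Of the NMD factors, UPF1 is the central helicase, UPF2 binds it, and UPF3A and UPF3B link UPF2 to the exon junction complex. All 4 UPF genes had log2 fold changes above 0, from 0.16 to 0.33 with a median of 0.23, and all 4 had a raw p below 0.05, as had 13.4% of all tested genes on the higher side. None passed after adjustment in edgeR's test, nor in DESeq2 or limma-voom. UPF3AP3, a pseudogene, had 13 to 56 counts in a library, so UPF3A may share some reads with it. UPF3A measured 11.0, 11.4 and 11.0 CPM in control and 13.3, 14.1 and 14.7 CPM in ERI2 siRNA libraries (0.33, SE 0.0988, adjusted p = 0.0509). UPF3B measured 29.8, 32.4 and 30.2 against 36.6, 34.9 and 38.3 CPM (0.25, SE 0.0792, adjusted p = 0.0655). UPF2 measured 66.0, 77.5 and 72.0 against 85.7, 78.8 and 85.0 CPM (0.21, SE 0.0767, adjusted p = 0.0979). In these 3 genes the groups did not overlap, while UPF1 (0.16, adjusted p = 0.188) overlapped, with 143, 135 and 155 against 151, 171 and 163 CPM. The 4 signs were the same in each alternative computed.

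SMG1 is the kinase that phosphorylates UPF1, and SMG5 and SMG6 bind phosphorylated UPF1, SMG6 as an endonuclease. None of the 3 passed edgeR's test (1 higher with raw p below 0.05, DESeq2 0 and limma-voom 0). SMG5 measured 276, 278 and 283 CPM in control and 308, 323 and 324 CPM in ERI2 siRNA libraries (log2 fold change 0.19, SE 0.0716, adjusted p = 0.110), without overlap. SMG1 measured 389, 376 and 367 against 395, 420 and 444 CPM (0.15, SE 0.0793, adjusted p = 0.236), also without overlap. A pseudogene, SMG1P1, had 168 to 352 counts in a library, and near-identical copies may share reads with SMG1, so its value is uncertain. SMG6 had a log2 fold change of 0.003, with 59.5, 56.2 and 56.8 against 52.1, 58.5 and 62.2 CPM.

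Over all 42 genes the groups did not overlap for 11 higher genes (26.2%) and 7 lower genes (16.7%), against 14.1% and 15.6% of all tested genes. The higher ones were EXOSC1, EXOSC5, EXOSC10, CNOT3, CNOT4, EDC4, UPF2, UPF3A, UPF3B, SMG1 and SMG5. The lower ones were DIS3L, CNOT6L, CNOT8, CNOT1, DCP1A, DCP2 and DDX6. Within a group the spread between libraries was small, with a median coefficient of variation of 4.68% in control and 5.71% in ERI2 siRNA libraries. It was highest for EXOSC4 in control (16.8%) and for SKIV2L after ERI2 siRNA (11.8%).

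**Figure D4:**
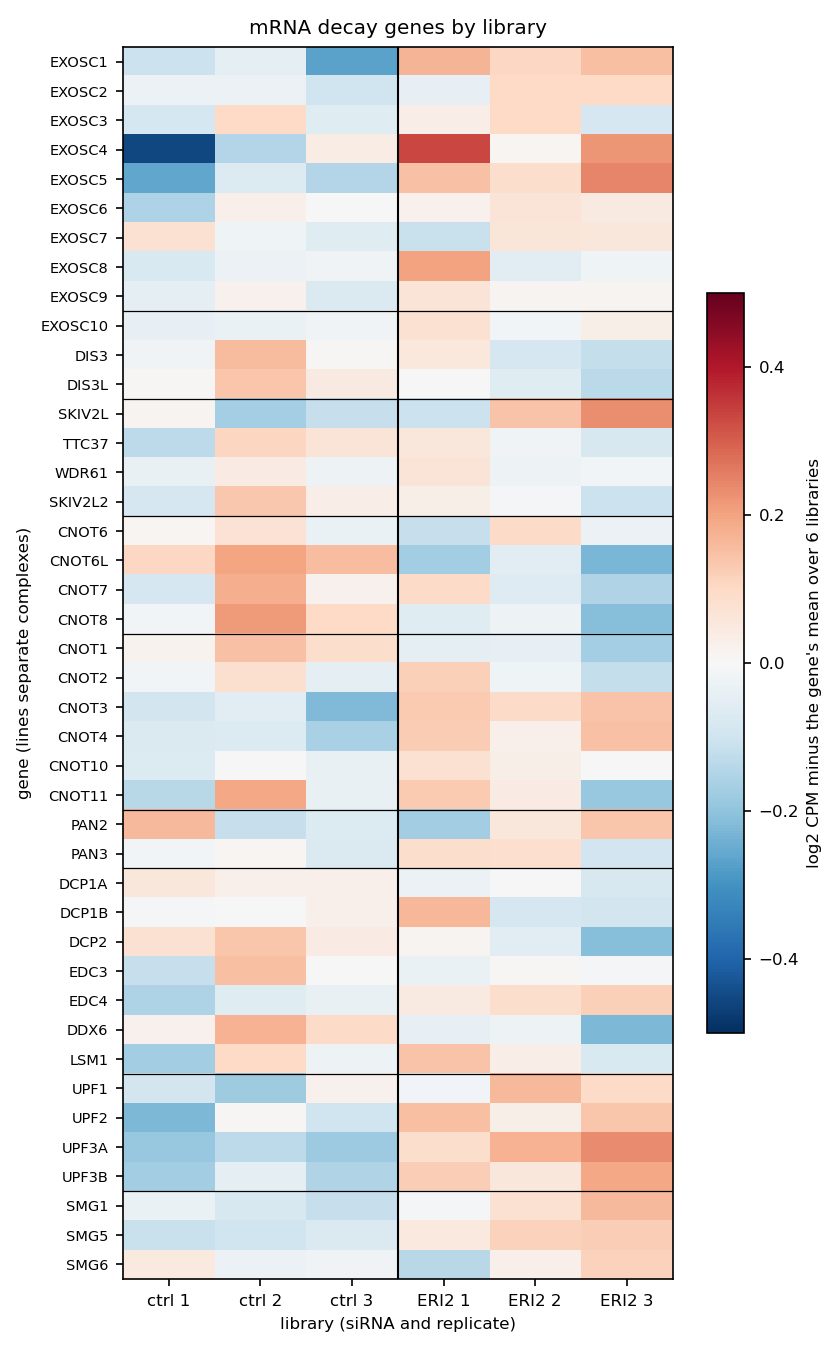
Log2 CPM of each gene in each library minus the gene's mean over the 6 libraries (red above, blue below; columns are control siRNA and ERI2 siRNA replicates 1 to 3, rows are genes with lines between complexes). UPF3A, UPF3B and EXOSC5 are below their mean in all 3 control libraries and above it in all 3 ERI2 siRNA libraries, CNOT6L is the reverse, and rows such as PAN2 and CNOT11 change color within a group.

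How many genes passed depended on library scaling. With total library size in place of TMM the median log2 fold change over every tested gene was 0.06, not 0.003, and 10 of the 42 (23.8%) were higher and 0 lower, against 5.18% and 2.46% of all tested genes. The 10 were EXOSC1, EXOSC4, EXOSC5, CNOT3, CNOT4, EDC4, UPF2, UPF3A, UPF3B and SMG5. The median of the 42 genes was 0.10 under that scaling, against 0.04 under TMM. The signs of 7 genes with log2 fold changes near 0 turned: TTC37, SKIV2L2, CNOT6, CNOT2, CNOT11, DCP1B and EDC3.

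Leaving out both replicate 1 libraries gave 7 higher and 7 lower genes of 42 (16.7% each), against 13.9% and 14.1% of all genes in the same fit. EXOSC1 (0.27, adjusted p = 0.0339) and CNOT6L (-0.32, adjusted p = 0.00763) were among them. SKIV2L, CNOT3, UPF1, UPF3A, SMG1 and SMG5 were also higher, and DIS3, CNOT7, CNOT8, CNOT1, DCP2 and DDX6 also lower. Both shares were close to those of all genes. Between the libraries numbered 1, DIS3 and CNOT7 differed in the other direction (0.07 and 0.18 log2 units), as did SKIV2L (-0.12), while CNOT6L (-0.28), EXOSC1 (0.28) and UPF3A (0.28) differed in the same direction. These are differences between single libraries that were not taken as pairs. The difference between replicate 1 and the others was not tested.

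**Figure D5:**
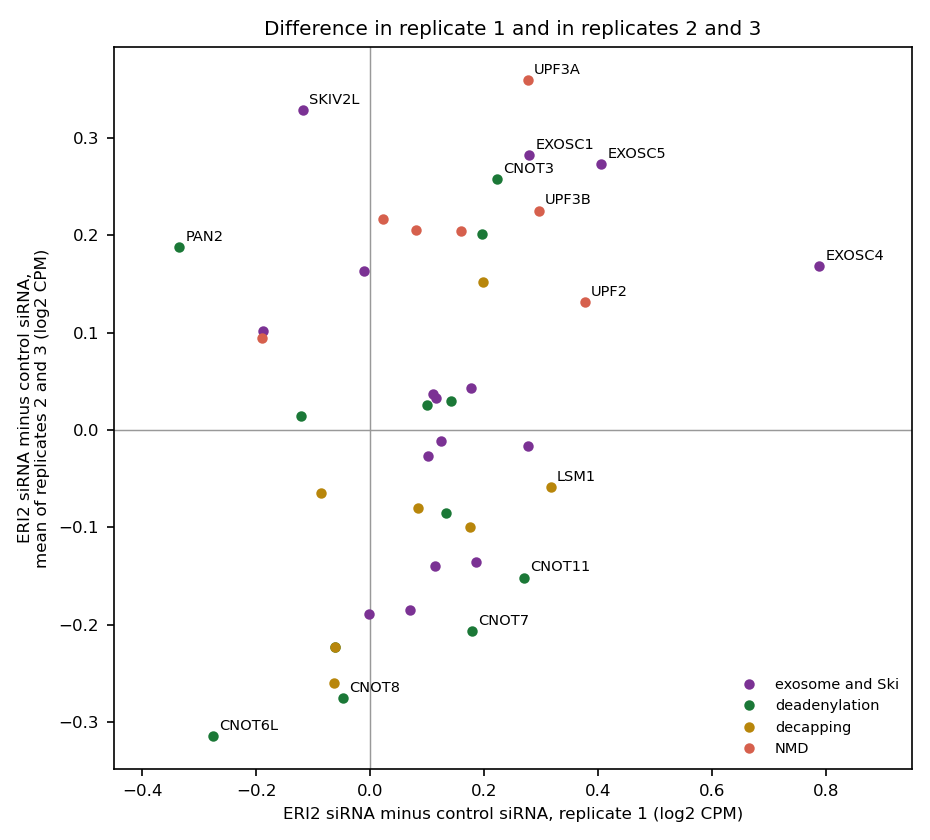
Difference in log2 CPM (ERI2 siRNA minus control siRNA) between the libraries numbered 1, on the horizontal axis, and averaged over those numbered 2 and 3, on the vertical axis, for the 42 genes colored by pathway. CNOT6L lies low on both axes and EXOSC1, EXOSC5, UPF3A and UPF3B high on both. In 18 of the 42 genes (42.9%, against 47.6% of all tested genes) the signs are opposite, among them SKIV2L, PAN2, CNOT7, CNOT11 and LSM1.

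Other genes of each branch, here called partners, were listed by name, and not every one encodes a protein that works with these complexes. Of 14 exosome partners none passed edgeR's test (3 higher with raw p below 0.05, DESeq2 0 and limma-voom 0, median log2 fold change 0.04). Among all tested genes 4.29% were higher and 4.25% lower, and the median was 0.003. With raw p below 0.05 these shares were 13.4% and 13.1%. Of 16 decapping partners none passed (1 higher and 4 lower with raw p below 0.05, DESeq2 0 and limma-voom 0; median -0.10). With replicates 2 and 3 alone 5 of them were lower and 0 higher (LSM2, LSM3, LSM5, DCPS and PNRC2, named after their values were seen), against 14.1% of all genes lower in that fit. LSM5 was also lower with no filter and without control replicate 1, and LSM5 and DCPS without ERI2 siRNA replicate 1. XRN1, the exonuclease that degrades decapped mRNA, measured 146 ± 5.68 against 131 ± 4.75 CPM (SD, n = 3), which did not pass (-0.16 on the log2 scale, edgeR adjusted p = 0.151). Of 22 deadenylation partners 1 rose and 1 fell, with a median of -0.004. TNRC6A, which recruits CCR4-NOT to miRNA targets, rose from 127 ± 2.18 to 161 ± 1.54 CPM (SD, n = 3; 0.34, adjusted p = 0.00940), and BTG2, an antiproliferative protein that binds the CNOT7 and CNOT8 enzymes, fell from 25.8 ± 1.96 to 19.3 ± 1.62 CPM (-0.42, adjusted p = 0.0169). Both calls ended without control replicate 3 or ERI2 siRNA replicate 2, and with replicate number as a block in the fit. That of BTG2 also ended without ERI2 siRNA replicate 3 and at an adjusted p under 0.01.

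Of 16 NMD partners, DHX34, a helicase that promotes UPF1 phosphorylation, rose and none fell (3 higher and 0 lower with raw p below 0.05, 1 higher and 0 lower in DESeq2 and in limma-voom; median 0.01). With replicates 2 and 3 alone 2 were higher and 4 lower, against 13.9% and 14.1% of all genes in that fit. DHX34 measured 61.2, 57.4 and 61.4 CPM in control and 80.0, 79.7 and 85.9 CPM in ERI2 siRNA libraries. The gap between the groups was wide beside their spread, with a log2 fold change of 0.45 (SE 0.0702; adjusted p = 0.00393 in edgeR's test). DHX34 passed in each of the 16 alternatives computed, including each scaling and the removal of any 1 library.

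Transcripts that the decay pathways are known to act on were counted in the same way. Of 19 transcripts known as NMD targets, GADD45B, a stress-response gene, rose from 7.06 ± 0.983 to 9.62 ± 0.592 CPM (SD, n = 3), by 0.45 log2 units (edgeR adjusted p = 0.0456), and none fell (6 higher and 0 lower with raw p below 0.05, 2 higher and 0 lower in DESeq2, 1 higher and 0 lower in limma-voom). DESeq2 also called CARS, a tRNA synthetase gene. Among all tested genes 4.29% rose and 4.25% fell in edgeR's test, and 13.4% and 13.1% had a raw p below 0.05. With replicates 2 and 3 alone GAS5, SNHG12, SNHG15 and CARS were higher and SRSF3 was lower, all named after their values were seen. In that fit 13.9% of all genes were higher and 14.1% lower. The median of the list was 0.12, with 15 of 19 above 0, against 0.003 and 50.5% for all tested genes. Scaling by total library size gave 5 higher and 0 lower, against 5.18% and 2.46% of all tested genes, whose median was then 0.06. GADD45B no longer passed without any 1 library, with replicate number as a block in the fit or at an adjusted p under 0.01. GAS5, a host of small nucleolar RNAs whose spliced transcript is an NMD target, measured 226 ± 7.99 against 255 ± 6.18 CPM (0.17, adjusted p = 0.134). Gene counts do not separate isoforms with and without a premature stop codon.

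Of 17 genes whose mRNAs carry AU-rich elements, which recruit CCR4-NOT, 15 were tested, 3 rose and none fell (6 higher and 0 lower with raw p below 0.05, 3 higher and 0 lower in DESeq2 and in limma-voom, median 0.20). Among all tested genes 4.29% rose and 4.25% fell, and the median was 0.003. With raw p below 0.05, 13.4% of all tested genes were higher and 13.1% lower. The 3 that rose were immediate-early transcription factor genes at low levels. EGR1 measured 1.85, 1.81 and 1.95 CPM in control and 2.95, 4.21 and 3.56 CPM in ERI2 siRNA libraries (0.94, SE 0.195, adjusted p = 0.0125). FOS measured 2.47, 4.51 and 3.90 against 6.37, 7.15 and 6.34 CPM (0.87, SE 0.191, adjusted p = 0.0157), and JUNB rose from 5.89 ± 0.942 to 8.50 ± 0.991 CPM (SD, n = 3; 0.53, adjusted p = 0.0377). None of the 3 passed without ERI2 siRNA replicate 2, with replicate number as a block in the fit or at an adjusted p under 0.01. With replicates 2 and 3 alone FOS and EGR1 passed and JUNB did not. FOS was also lost without control replicate 3, and JUNB without control replicates 1 or 2 or any 1 ERI2 siRNA replicate.

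Neighbouring genes bear on these counts, because none of the sources used here gives the strand setting of the counting. In RefSeq (GRCh38.p14) the spans of 10 of the 42 genes overlapped another protein-coding gene. Of the 37 genes with a promoter window, 8 had a protein-coding gene starting on the other strand within 1000 bases. EXOSC1, EXOSC4, CNOT7, CNOT1 and LSM1 had no window, so such starts were not sought for them. EXOSC8 overlaps SUPT20H, EXOSC9 overlaps CCNA2 and DIS3 overlaps BORA on opposite strands, and the log2 fold changes of these neighbours were 0.04, -0.07 and -0.01. SMG6 overlaps SRR, whose mRNA fell (-0.45, adjusted p = 0.0300 in edgeR's test), and SMG5 overlaps TMEM79 (0.42, adjusted p = 0.0751). CNOT1 overlaps SETD6 (0.31, adjusted p = 0.0609), opposite in sign to CNOT1 itself (-0.17). CNOT6L and EXOSC1 overlapped no protein-coding gene there. The part of overlapping reads in these values was not tested.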

How the data were processed

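RNA-seq of HEK293T cells (3 control siRNA and 3 ERI2 siRNA libraries) was used, and the miRNA libraries were not used here. The authors deposited raw read counts per gene, 1 column per library, and 0 columns were left without a sample. HTSeq 0.6.1p1, TopHat2 2.0.10 and CASAVA 1.8.2 are listed, with build hg19 and without roles, per the submitters' processing notes. No source used here gives the annotation or strand setting.

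After filterByExpr and TMM scaling, all genes were tested in R 4.3.3 by the robust quasi-likelihood test of edgeR 4.0.16, with Benjamini-Hochberg adjustment and a threshold of 0.05. Log2 CPM used a prior count of 2. Alternatives were DESeq2 1.42.0, limma-voom (limma 3.58.1), other scalings and filters, a replicate block and left-out libraries. Same-numbered libraries did not deviate together (correlations of -0.300, -0.0792 and -0.104), so numbers were not taken as pairs. Replicates of a group differed by more than counting noise (chi-square per degree of freedom at least 4.66).

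Members, lists, pairs and alternatives were chosen with earlier results of these data known. The siRNA target and members' log2 fold changes refer to ERI2 siRNA over control siRNA. All members are named. Values of each library are given for members past the test under any scaling or DESeq2 and for the largest change of each complex, and for a few others chosen after their values were seen. In partner lists, at most 4 genes past the test are named, with XRN1 and GAS5 added for their roles. A gene of these lists is not reported here.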

Additional observations from a re-analysis of the deposited data

How the results depend on the processing

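The single higher and single lower member under TMM became 3 higher under RLE size factors (4.46% of all genes in that fit), 5 under the upper quartile (4.81%), 10 higher and 0 lower under total library size (5.18% and 2.46%), 2 higher with no filter (3.98%) and 4 with at least 1 CPM in 3 libraries (5.38%). With DESeq2 and limma-voom the same 2 genes, EXOSC1 and CNOT6L, passed. At an adjusted p under 0.01 the counts were 0 and 0 (0.738% and 0.770% of all genes), and with replicates 2 and 3 alone 7 and 7 (13.9% and 14.1%). Leaving out 1 library gave from 0 to 2 higher (0.913% to 7.31% of all genes) and from 0 to 1 lower (1.01% to 6.81%). With the replicate block 0 members were higher and 0 lower, where 0.557% and 0.520% of all genes passed (adjusted p of 0.157 for EXOSC1 and 0.107 for CNOT6L), although the labels do not pair the libraries. No call of a member turned to the opposite direction under any alternative, and 22 members passed under none.

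The CNOT6L to CNOT6 difference was -0.33 with replicates 2 and 3 alone and ranged from -0.31 to -0.24 without 1 library. SKIV2L to SKIV2L2 moved from 0.23 to 0.47 with replicates 2 and 3 alone. With differences taken within replicate numbers (replicate block), the pair values equal the main ones by construction. With 3 libraries per group and standard errors near 0.0791 log2 units, differences of about 0.2 seldom passed here after adjustment over all genes, and a gene that did not pass is not shown to be unaltered.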
